A study of Mus musculus with 6 samples.

Results

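Of the genes of the hypoxia response and of the switch towards glycolysis, 10 were followed in mouse kidney: Hif1a, Epas1, Egln3, Vegfa, Bnip3, Slc2a1, Hk2, Ldha, Pkm and Pdk1. They were chosen by name, with no threshold on their values but with earlier results of these data known. All 10 were found among the 40993 genes of the deposited table. All 10 were also among the 15431 genes tested. The samples were whole kidneys of 2-month-old C57BL/6 mice, 3 from mice fed the standard diet and 3 from mice fed one enriched in adenine. Adenine in excess forms a poorly soluble product that deposits in the tubules, and feeding it is a common way to injure the rodent kidney. The labels name no adenine dose, feeding time or sex, and do not say that each library came from a separate mouse, so the p-values measure only the spread between these libraries. Levels are FPKM, fragments per kilobase of transcript scaled to the mapped fragments of each library, which can be compared between genes. Diet differences are given as log2(FPKM + 1), adenine minus standard, a scale that understates the change of genes with low FPKM. A gene was called changed at an adjusted p under 0.05 (limma, Benjamini-Hochberg over all 15431 genes), and folds are ratios of mean FPKM.

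Cells sense oxygen through prolyl hydroxylases, which mark the alpha subunits of hypoxia-inducible factor (HIF) for destruction by the von Hippel-Lindau ligase while oxygen is present. When oxygen falls, the alpha subunits persist, pair with Arnt and switch on genes for blood vessel growth, glucose uptake, glycolysis and the removal of mitochondria. Because the alpha subunits are controlled mainly as proteins, the Hif1a and Epas1 transcripts do not report the activity of the factor. In the kidney, the proximal tubule burns fatty acids and lactate and makes glucose, whereas the distal nephron and the medulla use glycolysis.

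The 10 genes did not move as a group. Hk2, the inducible hexokinase that traps glucose in the cell, was 7.52-fold higher on the adenine diet, and Pkm, the pyruvate kinase of most tissues outside the liver, was 1.39-fold higher. Bnip3, a receptor that directs mitochondria to autophagy, was 1.66-fold lower. Vegfa, the main growth factor for endothelium, was 1.32-fold lower, and Ldha, the lactate dehydrogenase subunit that favours lactate production, was 1.30-fold lower. Hif1a, Epas1, Egln3, Slc2a1 and Pdk1 did not pass the test. Thus 2 of 10 were called higher, against 29.7% of all genes tested, and 3 of 10 were called lower, against 6.84%; in either direction 36.5% of all genes were called. The median difference of the 10 genes was 0.11, below the median of 0.25 over all genes. These counts describe the list and carry no test. With 1 library left out the rise of Hk2 was called each time, while no gene of the 10 was called lower without standard 1, 2 or 3 or adenine 2, and 1 (Bnip3) was without adenine 1. With every library in, 1056 of all genes were called lower. This number was 435, 363 and 418 without standard 1, 2 and 3. It was 643, 231 and 1594 without adenine 1, 2 and 3. The leave-one-out counts of the lists below are to be read beside these numbers. In whole kidney, fewer cells of a type and less RNA per cell cannot be told apart.

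**Figure D1:**
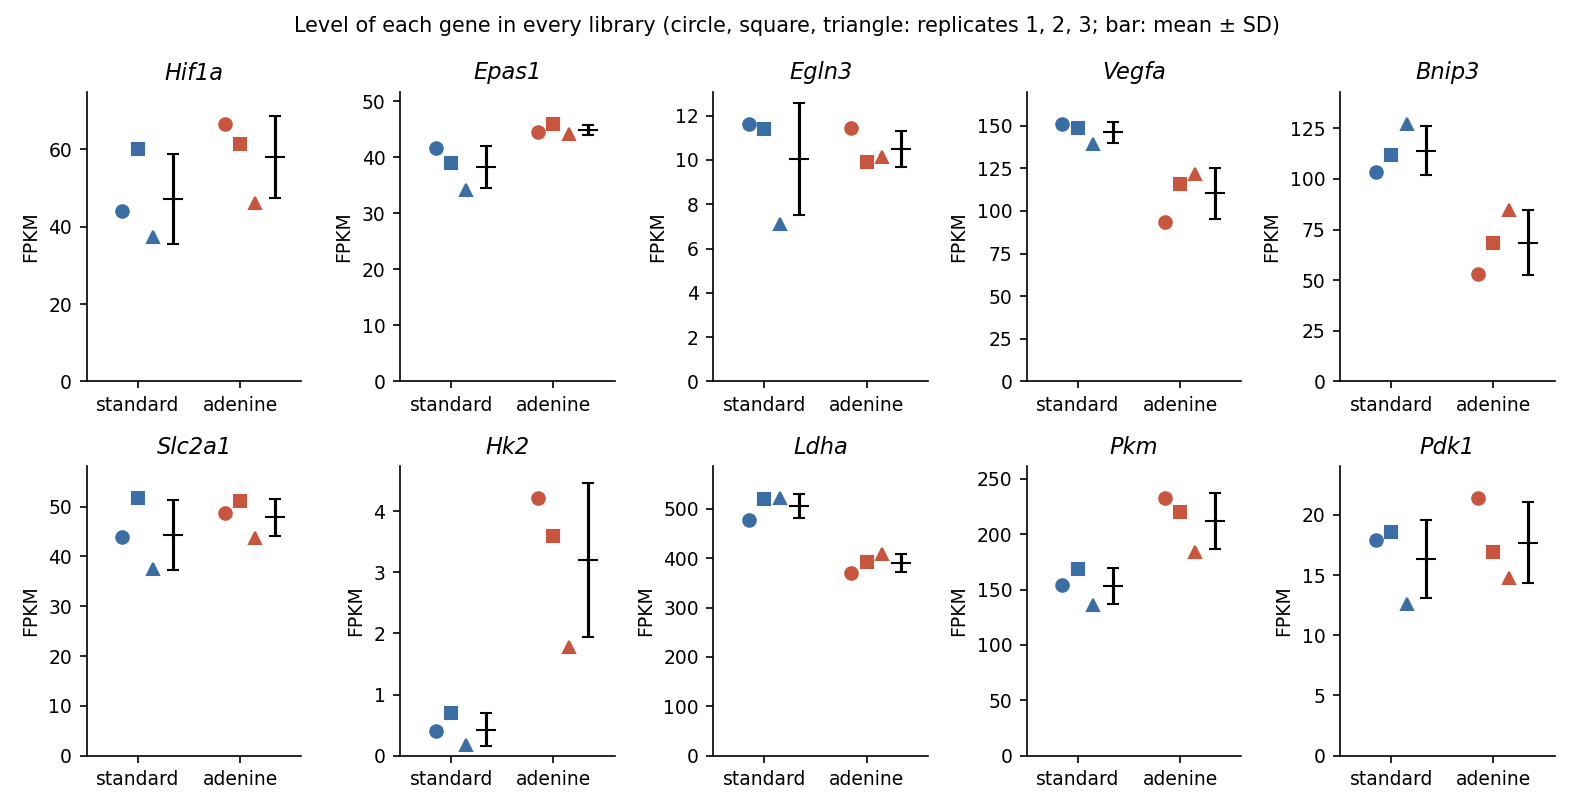
FPKM of each of the 10 genes in the 3 standard (blue) and 3 adenine (red) libraries, with a linear axis from 0 for each gene and the mean ± SD as a bar. The adenine points of Hk2, Pkm and Epas1 lie above all standard points, those of Vegfa, Bnip3 and Ldha lie below them, and the groups overlap for the other genes. Of all genes tested, 44.4% lay wholly above and 11.8% wholly below.

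Hypoxia response elements carry the core ACGTG or GCGTG, and the promoters of 4 of the 5 genes that changed are shown so that these letters can be seen beside the values. The window was 250 bases before the RefSeq start site (GRCm38.p6), and both strands were searched, so that a palindromic CACGTG counts as 1 match on each strand. RefSeq promoters were matched by symbol for 9 of the 10 genes, all but Epas1. Vegfa, Ldha, Pkm and Pdk1 had 2 entries each, and only the most upstream was searched. Of the 9 genes, 7 held at least 1 match, against 38.6% of the 32851 promoters in the RefSeq table. The 38.6% counts every entry, and the 9 genes were chosen by name from the hypoxia response and glycolysis switch, so these figures are a description only. Bnip3 held 5 matches at 4 places, Ldha 5 at 3 places, Hif1a 3 at 2 places, Hk2 and Slc2a1 2 each, and Egln3 and Pdk1 1 each. Vegfa and Pkm held none in this window, of which 208 of 250 bases lie in annotated exons for Pkm, whose window is not shown. The sequences below run 5′ to 3′ on the strand of the gene, with the matches in capitals: Hk2 is chr6:82774455-82774704 on the minus strand, Bnip3 chr7:138909520-138909756 on the minus strand, Ldha chr7:46845554-46845803 on the plus strand and Vegfa chr17:46032378-46032627 on the minus strand. Bnip3 is shown without the 13 window bases that lie in an annotated exon.
Hk2: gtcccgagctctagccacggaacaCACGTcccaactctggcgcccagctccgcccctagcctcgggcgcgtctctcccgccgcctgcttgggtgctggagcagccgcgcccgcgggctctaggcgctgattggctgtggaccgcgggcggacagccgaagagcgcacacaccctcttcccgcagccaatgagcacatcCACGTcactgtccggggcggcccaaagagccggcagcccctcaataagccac
Bnip3: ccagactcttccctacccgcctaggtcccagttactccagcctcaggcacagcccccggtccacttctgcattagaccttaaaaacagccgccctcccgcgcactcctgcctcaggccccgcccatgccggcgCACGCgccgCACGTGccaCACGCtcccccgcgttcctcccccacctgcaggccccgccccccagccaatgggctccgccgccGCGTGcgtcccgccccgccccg
Ldha: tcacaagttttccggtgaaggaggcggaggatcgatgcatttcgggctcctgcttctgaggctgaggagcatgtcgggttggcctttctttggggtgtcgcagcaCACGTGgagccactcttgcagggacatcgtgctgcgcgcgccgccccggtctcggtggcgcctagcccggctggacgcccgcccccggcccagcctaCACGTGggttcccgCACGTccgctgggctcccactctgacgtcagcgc
Vegfa: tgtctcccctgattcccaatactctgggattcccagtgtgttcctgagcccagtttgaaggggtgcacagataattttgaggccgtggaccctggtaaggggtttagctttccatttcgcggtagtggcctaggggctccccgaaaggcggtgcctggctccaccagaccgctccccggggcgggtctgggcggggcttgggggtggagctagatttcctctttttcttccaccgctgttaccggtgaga
Hk2 rose with 2 matches, Bnip3 and Ldha fell with 5 each, and Vegfa fell and Pkm rose with none in the searched window. Bases outside the window were not searched. A window of 250 bases in 5 genes cannot show how such elements relate to direction, which was not tested. A match is a run of letters, not a binding site.

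In both diets Ldha had the highest level per length, with means of 506 and 390 FPKM. Pkm, Vegfa and Bnip3 followed; the ranges of Pkm and Vegfa overlapped in the standard libraries, and those of Bnip3 and Hif1a in the adenine libraries. Hif1a, Slc2a1 and Epas1 formed a middle tier between 34.1 and 66.5 FPKM whose ranges overlapped in the standard libraries. Pdk1 and Egln3 were lower, and Hk2 was the lowest of the 10 in every library.

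The calls depend in part on how the libraries are scaled, since the median of all tested genes lay 0.25 above 0 with the FPKM as deposited. Median-of-ratios scaling, which divides each library by its median ratio to a common reference, brought that median to -0.00. The library factors were 0.861 to 0.940 for standard and 1.05 to 1.19 for adenine. Under it Hk2 was the 1 gene of the 10 still higher, against 16.8% of all genes, and Vegfa, Bnip3 and Ldha were the 3 lower, against 15.2% (32% of all genes in either direction). The median of the 10 genes was then -0.18. With the replicate number as a block, 2 were higher and only Bnip3 was lower, against 31.3% and 7.34% of all genes (38.6% in either direction).

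**Figure D2:**
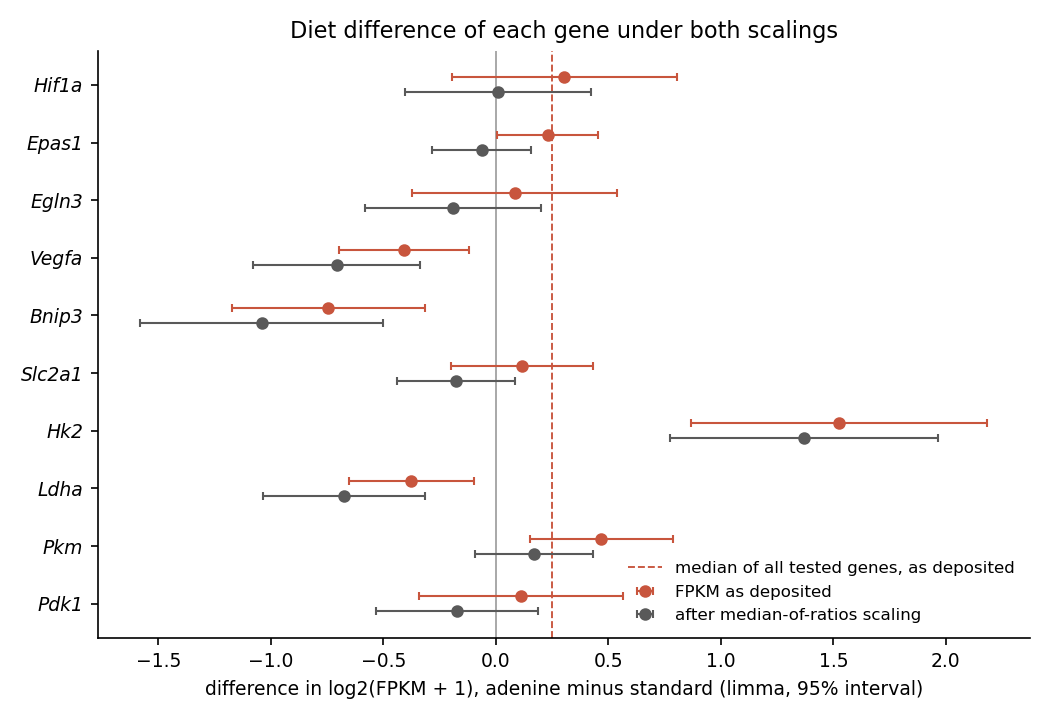
Diet difference in log2(FPKM + 1) for each gene with its 95% limma interval, with the FPKM as deposited (red) and after median-of-ratios scaling (grey); the dashed line is the median of all tested genes as deposited, 0.25. Only Hk2 lies clear of 0 on the higher side under both scalings, Vegfa, Bnip3 and Ldha lie below 0 under both, and the Pkm interval includes 0 after scaling.

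Markers of other cells changed with the diet in the same libraries. Their counts are to be read beside the shares over all genes tested. With the FPKM as deposited, 29.7% of all genes were called higher and 6.84% lower. Under median-of-ratios scaling these shares were 16.8% and 15.2%. The replicate block gave 31.3% and 7.34%. Summed FPKM of 7 proximal tubule markers was 1560 to 2199 in the standard libraries and 565 to 1333 in the adenine libraries, and 5 of the 7 fell; with 1 library left out 1 fell (without standard 1, 2 or 3 or adenine 2), 3 (without adenine 1) or 6 (without adenine 3). Adenine 1, with the lowest sum, was also the library with the lowest Bnip3, Vegfa and Ldha, and adenine 3, with the highest sum of the adenine libraries, had the highest of each. Among the standard libraries, the one with the lowest sum, standard 1, had the lowest Bnip3 and Ldha but the highest Vegfa. In the other direction, 8 of 8 macrophage markers rose, with sums of 101 to 127 against 756 to 1739, as did 5 of 5 fibroblast markers, with sums of 90.4 to 124 against 621 to 1171.5. The 3 injured tubule markers rose from sums of 9.99 to 13.9 to sums of 327 to 775. Hk2 and Pkm were highest in adenine 1 and lowest in adenine 3 among the adenine libraries, the order of the macrophage and fibroblast sums. Hif1a and Pdk1, which were not called, had the same order, as did the median-of-ratios library factors (1.19, 1.11 and 1.05). The injured tubule sums did not, at 694, 775 and 327 in adenine 1, 2 and 3. The macrophage, fibroblast and injured tubule markers were called in full on leaving out any library. The part of these cells in any difference was not tested. Of 7 endothelial markers 1 rose and none fell, with sums of 199.7 to 245.6 and 222.7 to 236.5; the 1 was Egfl7, named after its value was seen and not called on leaving out any single library. After median-of-ratios scaling none of the 7 rose and 4 fell, and 1 fell without standard 3 or adenine 3. The 3 podocyte markers rose from sums of 70.7 to 80.3 to sums of 96.4 to 114, with 1 of the 3 called after median-of-ratios scaling and 2 with the block or on leaving out any single library. The skeletal muscle genes Myh4 and Ckm were at 0, except Ckm in adenine 3 at 0.0428 FPKM. The 3 liver markers summed to 123 to 172 FPKM in the standard and 87.9 to 251 FPKM in the adenine libraries, mostly from Ttr at 83.7 to 244 FPKM. Alb read 2.67 to 5.86 FPKM, and Apoa2 was the 1 of the 3 that fell (difference -0.93, adjusted p = 0.0223). Adenine 1 stood apart in its 3 B cell markers, which summed to 32.0 FPKM against 0.299 to 1.83 in the other libraries. Umod, which marks the thick ascending limb of the kidney, read 2393 to 3505 FPKM in the 6 libraries. It is 1 of 4 markers of that segment, of which 1 rose and 1 fell. After median-of-ratios scaling none of the 4 rose and 2 fell.

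Neither alpha subunit passed the test. Hif1a (chr12:73901375-73947530, plus strand, GRCm38), the alpha subunit found in most cells, measured 44.1, 60.1 and 37.3 FPKM in standard libraries 1, 2 and 3 and 66.5, 61.4 and 46.1 FPKM in adenine libraries 1, 2 and 3. The groups overlapped, since standard 2 lay above adenine 3, and the difference was 0.30 (95% interval -0.20 to 0.80, adjusted p = 0.278). Hif1a shares 330 exonic bases with an antisense gene, Gm15283, which read 0.295 to 0.847 FPKM. Whether counting used the strand is not given in the sources used here. Epas1 (chr17:86753907-86833410, plus strand) encodes HIF-2 alpha, the form that drives erythropoietin in kidney interstitial cells. It measured 41.6, 39.0 and 34.1 FPKM on the standard diet and 44.5, 45.9 and 44.2 FPKM on adenine. Every adenine library lay above every standard one, a pattern shared by 44.4% of all genes tested, but the difference of 0.23 had an adjusted p of 0.0959. After median-of-ratios scaling the Epas1 difference was -0.06.

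Egln3 (chr12:54178981-54203860, minus strand) encodes a prolyl hydroxylase that is itself a HIF target. It measured 11.6, 11.4 and 7.12 FPKM on the standard diet and 11.4, 9.91 and 10.1 FPKM on adenine, with overlapping groups and a difference of 0.08 (-0.37 to 0.54, adjusted p = 0.741). Only standard 3 was low; without that library the difference was -0.13. The hydroxylase with the broadest role, Egln1, was 25.1 ± 1.12 and 24.8 ± 2.32 FPKM (SD, n = 3 each), a difference of -0.02 (adjusted p = 0.863).

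Of the 14 tested regulators of the pathway, Hif1a, Epas1 and Egln3 included, 1 rose (7.14%) and 2 fell (14.3%). Of all genes 29.7% rose and 6.84% fell. The median difference of the regulators was 0.13. With 1 library left out 1 to 3 rose and 0 to 2 fell. Arnt2, a partner of the alpha subunits best known from neurons, rose from 9.81 ± 1.31 to 17.8 ± 1.96 FPKM (difference 0.80, adjusted p = 0.00866), and this call held in all 17 alternative analyses. Eloc and Elob (listed as Tceb1 and Tceb2), the elongins of the von Hippel-Lindau ligase, fell. Eloc went from 49.7 ± 4.92 to 36.3 ± 0.578 FPKM (difference -0.44, adjusted p = 0.0166), a call lost without standard 1, standard 3 or adenine 2 (adjusted p = 0.0563, 0.0568 and 0.0678). Elob went from 182 ± 7.05 to 150 ± 6.17 FPKM (difference -0.28, adjusted p = 0.0452), and its call was lost with the replicate block (adjusted p = 0.0647) and on leaving out any library but adenine 3 (0.0711 to 0.175). The Elob call held in 7 of the 17 alternatives, and the highest adjusted p was 0.222, with quantile normalization. Vhl itself measured 11.3 ± 0.497 and 15.2 ± 2.83 FPKM and missed the threshold (adjusted p = 0.0759). Hif3a, at no more than 0.445 FPKM in any library, was too low to be tested.

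Vegfa (chr17:46016993-46032377, minus strand) measured 151, 148 and 139 FPKM in the standard libraries and 93.3, 116 and 122 FPKM in the adenine libraries. All adenine libraries lay below all standard ones, which 11.8% of all genes tested did, and adenine 1 was the lowest. The difference was -0.41 (-0.70 to -0.12, adjusted p = 0.0395). Over the 17 alternatives its adjusted p ranged from 0.0190 to 0.134: it was 0.0599 with the replicate block, and the call was also lost without standard 1, 2 or 3 or adenine 1 or 2 (0.107, 0.108, 0.0819, 0.067 and 0.0914). Vegfb, a related ligand, measured 15 ± 1.17 and 15.6 ± 1.20 FPKM and did not pass (difference 0.06, -0.19 to 0.30).

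Among the 10 tested VEGF ligands and receptors, 4 rose (40%) and Vegfa alone fell (10%), against 29.7% and 6.84% of all genes. After median-of-ratios scaling 1 was higher (10%) and 3 were lower (30%), against 16.8% and 15.2%. Without standard 2, standard 3 or adenine 2 none was called, and without standard 1 or adenine 1 only 1 was, which rose. Nrp2, a co-receptor on lymphatic and other endothelium, rose from 7.90 ± 1.27 to 14.4 ± 3.09 FPKM (difference 0.78, adjusted p = 0.0208). Nrp1, the co-receptor of VEGF-A, rose from 33.6 ± 3.80 to 51.7 ± 11.1 FPKM (0.59, adjusted p = 0.0373), and Vegfc, a ligand of lymphatic growth, rose from 2.48 ± 0.105 to 3.72 ± 0.199 FPKM (0.44, adjusted p = 0.0295). Under median-of-ratios scaling neither Nrp1 (adjusted p = 0.141) nor Vegfc (0.185) passed. Leaving out standard 2, standard 3 or adenine 2 ended the Nrp2 call (adjusted p = 0.0535, 0.0625 and 0.0665), and leaving out any library but adenine 3 ended those of Nrp1 (0.0615 to 0.111) and Vegfc (0.0665 to 0.0901). Quantile normalization also ended the calls of Nrp2 and Nrp1 (adjusted p = 0.0673 and 0.0742). With no filter those of Nrp1 (0.0586) and Vegfc (0.0596) were lost too. Vegfc reversed to -0.08 under quantile normalization. Flt4, the receptor of VEGF-C, was the remaining gene called (3.45 ± 0.284 to 4.99 ± 0.337 FPKM, adjusted p = 0.0335), and is named here after its value was seen. Kdr, the main signalling receptor of VEGF-A, measured 19.2 ± 1.61 and 15.1 ± 1.48 FPKM and did not pass (-0.33, adjusted p = 0.0568).

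Bnip3 (chr7:138890836-138909519, minus strand) measured 103, 112 and 127 FPKM in the standard libraries and 52.9, 68.4 and 84.5 FPKM in the adenine libraries. The groups did not overlap, and the highest adenine value lay below the lowest standard one, as for 11.8% of all genes tested. The difference was -0.75 (-1.17 to -0.32, adjusted p = 0.0222), and -1.04 after median-of-ratios scaling. The call was lost without standard 1, 2 or 3 or adenine 2 (adjusted p = 0.0509, 0.0634, 0.0740 and 0.0690; range over the alternatives 0.00721 to 0.0740). Bnip3l, its close relative and also a mitophagy receptor, measured 72.5 ± 0.631 and 64.7 ± 7.11 FPKM (difference -0.17, adjusted p = 0.217). Of the 8 tested mitophagy receptors, Bnip3 was the 1 that fell with the FPKM as deposited. After median-of-ratios scaling 5 of the 8 were lower (62.5%), Bnip3l among them (adjusted p = 0.0154), and none was higher. Of all genes 15.2% were then lower and 16.8% higher. The 1 that rose was Fkbp8, from 82.4 ± 7.50 to 103 ± 5.78 FPKM (0.32, adjusted p = 0.0434), a difference that median-of-ratios scaling reduced to 0.03 (adjusted p = 0.850) and whose call was lost on leaving out any library but adenine 3 (0.0535 to 0.125). The Fkbp8 call held in 5 of the 17 alternatives. Bnip3 shares 504 exonic bases with an antisense gene, Gm45507.

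Slc2a1 (chr4:119108711-119137330, plus strand) encodes GLUT1, the glucose carrier of the basolateral membrane in the distal nephron and of many other cells. It measured 43.9, 51.7 and 37.5 FPKM on the standard diet and 48.8, 51.1 and 43.8 FPKM on adenine. The groups overlapped and the difference was 0.12 (-0.20 to 0.43, adjusted p = 0.499). Of the 8 tested glucose transporters 4 fell (50%) and none rose, against 6.84% and 29.7% of all genes, with a median difference of -0.38. The same counts were found after median-of-ratios scaling (15.2% and 16.8% of all genes) and with the block (7.34% and 31.3%). With 1 library left out 1 fell (without standard 1 or 2 or adenine 1 or 2), 2 fell (without standard 3) or 4 fell and 1 rose (without adenine 3). Slc5a2, which encodes the sodium-glucose cotransporter SGLT2 of the early proximal tubule, fell from 105 ± 23.2 to 36.6 ± 7.50 FPKM (difference -1.48, adjusted p = 0.00628) and was called in all 17 alternatives. It is also 1 of the 7 proximal tubule markers. Slc2a2 (GLUT2), through which that tubule returns glucose to the blood, fell from 46.5 ± 5.09 to 26.0 ± 9.24 FPKM (-0.86, adjusted p = 0.0326). The fructose carrier Slc2a5 fell from 32.2 ± 0.677 to 18.8 ± 6.65 FPKM (-0.79, adjusted p = 0.0317). The Slc2a2 and Slc2a5 calls were each lost on leaving out any library but adenine 3, with adjusted p up to 0.0985 and 0.101. They were also lost with no filter (adjusted p = 0.0545 and 0.0526). Slc2a4, the insulin-regulated carrier, was the remaining gene called (16.4 ± 1.69 to 10.8 ± 1.75 FPKM, adjusted p = 0.0234), and is named here after its value was seen.

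Hk2 (chr6:82725025-82774454, minus strand) measured 0.400, 0.704 and 0.170 FPKM in the standard libraries and 4.21, 3.59 and 1.78 FPKM in the adenine libraries. Every adenine library lay above every standard one, as for 44.4% of all genes tested, with adenine 3 the lowest of the adenine libraries. A count of 3 fragments in a transcript of 2000 bases corresponds to 0.0655 to 0.0862 FPKM at the estimated depths, and the standard values lay above this. The difference was 1.53 (0.87 to 2.18, adjusted p = 0.0105), and Hk2 was called in all 16 alternatives that tested it (adjusted p 0.00327 to 0.0446). The filter at a mean of 5 FPKM left it out. Hk1, the constitutive hexokinase, was the more abundant form in every library, at 54.0 ± 6.64 and 58.3 ± 1.62 FPKM (difference 0.12, -0.14 to 0.37). Hk3, the hexokinase of myeloid cells, rose from 0.406 ± 0.154 to 3.76 ± 2.23 FPKM (difference 1.66, adjusted p = 0.0138).

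Pkm (chr9:59656368-59679375, plus strand) measured 154, 169 and 136 FPKM on the standard diet and 232, 220 and 184 FPKM on adenine. All adenine values lay above all standard values, as for 44.4% of all genes tested. The difference was 0.47 (0.15 to 0.79, adjusted p = 0.0354). After median-of-ratios scaling it was 0.17 and did not pass (adjusted p = 0.267, the highest of the 17 alternatives, of which the lowest was 0.0139); the call was also lost without standard 1, 2 or 3 or adenine 1 or 2 (0.0878, 0.0598, 0.109, 0.0845 and 0.118). The M1 and M2 forms of pyruvate kinase are spliced from this gene, and gene-level FPKM cannot tell them apart. Pkm also shares 767 exonic bases with Gm49759 on the same strand. Pklr, the liver and proximal tubule form, measured 31.6 ± 12.0 and 28.6 ± 1.29 FPKM (difference -0.07, -0.70 to 0.56).

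Of the 23 tested glycolytic enzymes and their regulators, 4 rose (17.4%) and 1 fell (4.35%), against 29.7% and 6.84% of all genes. The median difference was 0.03. After median-of-ratios scaling 3 were higher (13%) and 7 lower (30.4%), against 16.8% and 15.2%. With 1 library left out, 3 to 6 rose and 0 to 4 fell, the largest counts without adenine 3. The 4 that rose were Hk2, Hk3, Pkm and Eno2. Eno2, the enolase of neurons and neuroendocrine cells, rose from 0.700 ± 0.0653 to 5.91 ± 1.98 FPKM (difference 1.98, adjusted p = 0.00454). Pgk1, the phosphoglycerate kinase and a classic HIF target, fell from 231 ± 18.6 to 177 ± 18.1 FPKM (difference -0.39, adjusted p = 0.0442), a call lost on leaving out any library but adenine 3 (adjusted p 0.0665 to 0.130). The Pgk1 call held in 8 of the 17 alternatives, and the highest adjusted p was 0.207, with quantile normalization. Between hexokinase and pyruvate kinase no step apart from Eno2 and Pgk1 passed.

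**Figure D3:**
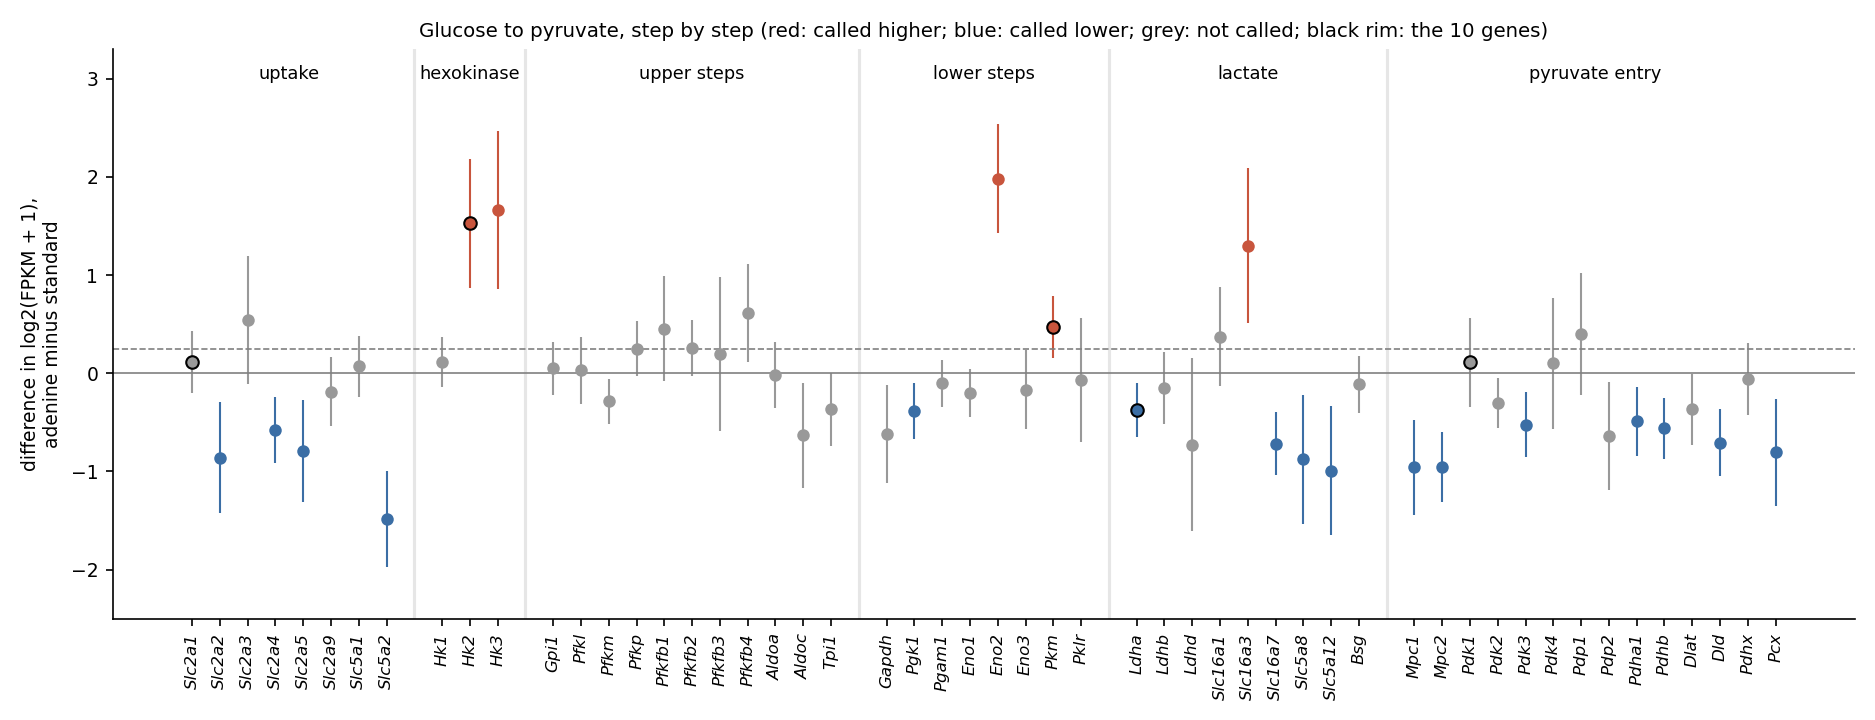
Diet difference in log2(FPKM + 1) with its 95% limma interval for genes ordered along the path from glucose uptake to the entry of pyruvate into mitochondria; red, blue and grey mark genes called higher, called lower and not called, black rims mark 5 of the 10 genes, and the dashed line is the median of all tested genes, 0.25. Red points stand at hexokinase, enolase, pyruvate kinase and lactate export, and blue points gather at uptake, lactate handling and pyruvate entry.

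Ldha (chr7:46841475-46855627, plus strand) measured 478, 519 and 521 FPKM in the standard libraries and 370, 392 and 408 FPKM in the adenine libraries. All adenine libraries lay below all standard ones, as for 11.8% of all genes tested. The difference was -0.38 (-0.65 to -0.10, adjusted p = 0.0455), and -0.68 after median-of-ratios scaling. Its adjusted p ranged from 0.0203 to 0.285 over the 17 alternatives: it was 0.0600 with the replicate block, and the call was also lost without standard 1, 2 or 3 or adenine 1 or 2 (0.0874, 0.140, 0.132, 0.0861 and 0.149). Ldha has 2 named pseudogenes, and how reads were shared with them is not given in the sources used here. Ldhb, the subunit that favours lactate use and the more abundant one in every library, measured 789 ± 32.3 and 712 ± 74.5 FPKM (difference -0.15, -0.52 to 0.21).

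Of the 12 tested genes of lactate and pyruvate handling, 7 fell (58.3%), Ldha included, and 1 rose (8.33%), against 6.84% and 29.7% of all genes. The median difference was -0.72. After median-of-ratios scaling the counts were the same, against 15.2% and 16.8%. With the replicate block 5 were lower, and with 1 library left out 2 to 3 were, except 7 without adenine 3. Slc16a3, the lactate exporter MCT4 of glycolytic cells, rose from 1.11 ± 0.763 to 4.15 ± 1.52 FPKM (difference 1.30, adjusted p = 0.0258), a call lost without standard 1, standard 3, adenine 1 or adenine 2 (adjusted p = 0.0746, 0.0750, 0.0643 and 0.0819). Quantile normalization also ended the Slc16a3 call (adjusted p = 0.0715). Mpc1 and Mpc2 form the carrier that takes pyruvate into mitochondria. Mpc2 fell from 221 ± 14.0 to 115 ± 22.0 FPKM (-0.95, adjusted p = 0.00762), in all 17 alternatives. Mpc1 fell from 440 ± 39.0 to 231 ± 61.5 FPKM (-0.96, adjusted p = 0.0156), a call lost without standard 1, standard 3 or adenine 2 (adjusted p = 0.0545, 0.0508 and 0.0606). Slc5a12, which reabsorbs lactate in the proximal tubule, fell from 47.5 ± 18.1 to 22.3 ± 2.72 FPKM (-0.99, adjusted p = 0.0326), a call that stood only on leaving out standard 1 among the 6 omissions (adjusted p 0.0232 to 0.101). With no filter the Slc5a12 call was also lost (adjusted p = 0.0554).

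Pdk1 (chr2:71873224-71903858, plus strand) encodes a kinase that switches off pyruvate dehydrogenase and is induced by HIF-1. It measured 17.9, 18.5 and 12.6 FPKM on the standard diet and 21.4, 16.9 and 14.8 FPKM on adenine. The groups overlapped and the difference was 0.11 (-0.34 to 0.56, adjusted p = 0.656). Its sign turned to -0.17 after median-of-ratios scaling, to -0.05 without standard 3 and to -0.03 without adenine 1. Of the 11 tested genes of the pyruvate dehydrogenase complex and its kinases and phosphatases, 4 fell (36.4%) and none rose. Of all genes 6.84% fell and 29.7% rose. The median difference of the 11 was -0.37. After median-of-ratios scaling 7 were lower (63.6%, against 15.2% of all genes). With 1 library left out 3 fell (without standard 1 or adenine 1), 1 (without standard 2 or adenine 2), 0 (without standard 3) or 6 (without adenine 3). The kinase Pdk3 fell from 28.7 ± 0.926 to 19.8 ± 3.73 FPKM (-0.53, adjusted p = 0.0290), a call lost without standard 1, 2 or 3 or adenine 2 (adjusted p = 0.0770, 0.0858, 0.0728 and 0.0871). Dld, the shared dihydrolipoamide dehydrogenase subunit, fell from 204 ± 16.7 to 125 ± 20.2 FPKM (-0.71, adjusted p = 0.0138), lost only without standard 3 (adjusted p = 0.0504, the highest of 17 alternatives whose lowest was 0.00806). Pdhb, the beta subunit of the first enzyme, fell from 153 ± 12.4 to 104 ± 14.4 FPKM (-0.56, adjusted p = 0.0201), a call lost without standard 2, standard 3 or adenine 2 (adjusted p = 0.0662, 0.0687 and 0.0624) and with quantile normalization (0.0504). Pdha1, the alpha subunit of that enzyme, was the remaining gene called (277 ± 19.0 to 198 ± 31.7 FPKM, adjusted p = 0.0394), named after its value was seen.

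Ratios of FPKM between related genes were taken within each library. For 12 such pairs the log2 ratio of FPKM + 1 was compared between diets with an exact two-sided permutation test, whose smallest p with 3 against 3 libraries is 0.10, so none could reach 0.05; adjusted over the 12 pairs the smallest value was 0.20. The ratio of Hk2 to Hk1 was 0.00720, 0.0118 and 0.00364 in the standard libraries and 0.0733, 0.0596 and 0.0311 in the adenine libraries, with no overlap (exact p = 0.10). Its log2 difference was 1.41 with 1 added to each FPKM and 2.58 with 0.1 added. The Slc2a1 to Slc2a2 ratio was 1.07, 1.10 and 0.732 against 2.64, 2.19 and 1.20, again without overlap (exact p = 0.10). Both ratios were thus higher in every adenine library. The Vegfa to Vegfb ratio was 9.36, 9.87 and 10.1 against 5.94, 8.05 and 7.27, and the Ldha to Ldhb ratio was 0.633, 0.654 and 0.637 against 0.592, 0.518 and 0.541; both were lower without overlap (exact p = 0.10 each). The Pfkp to Pfkm ratio was 2.14, 2.31 and 2.16 against 3.52, 3.44 and 2.82, higher without overlap (exact p = 0.10). The genes of this pair encode the platelet and muscle forms of phosphofructokinase. There were 6 ratios that overlapped between the diets (exact p from 0.20 to 1.0), among them Pkm to Pklr, Bnip3 to Bnip3l, Hif1a to Epas1 and Pdk1 to Pdk2.

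**Figure D4:**
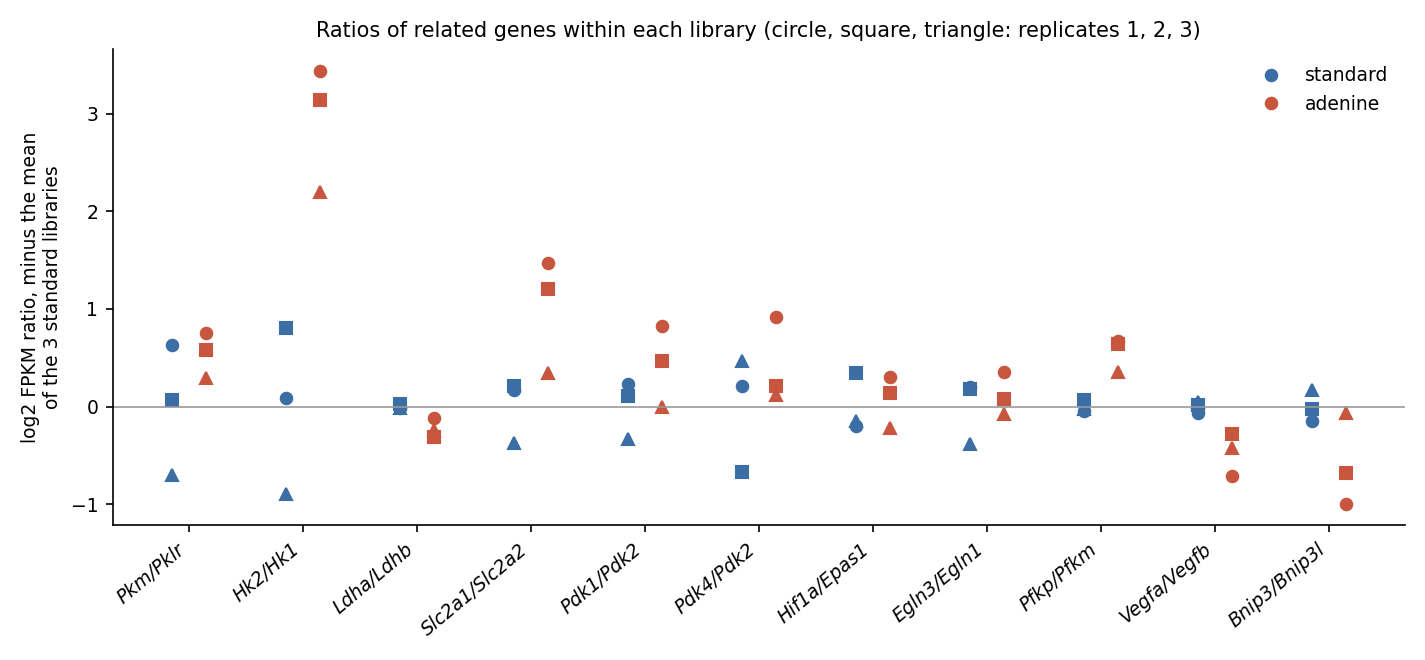
Log2 ratio of FPKM for pairs of related genes in each library, minus the mean of the 3 standard libraries; blue points are standard and red points adenine. The ratios are drawn without a pseudocount, unlike the tested ones, which widens the distance for Hk2 to Hk1; the red points of Hk2/Hk1, Slc2a1/Slc2a2 and Pfkp/Pfkm lie above all blue points, and those of Ldha/Ldhb and Vegfa/Vegfb below them.

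Beyond these genes, 33 other HIF targets were tested, of which 9 rose (27.3%) and 2 fell (6.06%), close to the 29.7% and 6.84% of all genes. After median-of-ratios scaling 8 were higher (24.2%) and 10 lower (30.3%), against 16.8% and 15.2% of all genes. With 1 library left out 7 to 11 rose and 1 to 4 fell. Lox, which cross-links collagen, measured 6.06, 4.42 and 2.76 FPKM on the standard diet and 32.5, 31.0 and 19.8 FPKM on adenine (difference 2.43, adjusted p = 0.00443). Cxcr4, a chemokine receptor of leukocytes, measured 2.39, 1.81 and 4.05 against 15.4, 9.31 and 9.53 FPKM (1.74, adjusted p = 0.00787). The adenine values of both genes lay above all standard values, as for 44.4% of all genes tested, and the genes are also known from matrix and immune cells. Higd1a, a mitochondrial protein induced by hypoxia, fell from 20.7 ± 0.758 to 14.2 ± 0.365 FPKM (-0.52, adjusted p = 0.00762). Lox, Cxcr4 and Higd1a were called in all 17 alternatives. Tfrc, the transferrin receptor, read 435 FPKM in standard 2 alone, against 23.4 to 42.5 FPKM in the other 5 libraries. Epo, the erythropoietin gene, was listed at 0 in standard 1 and 2 and at no more than 0.326 FPKM elsewhere, and was too low to be tested.

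**Figure D5:**
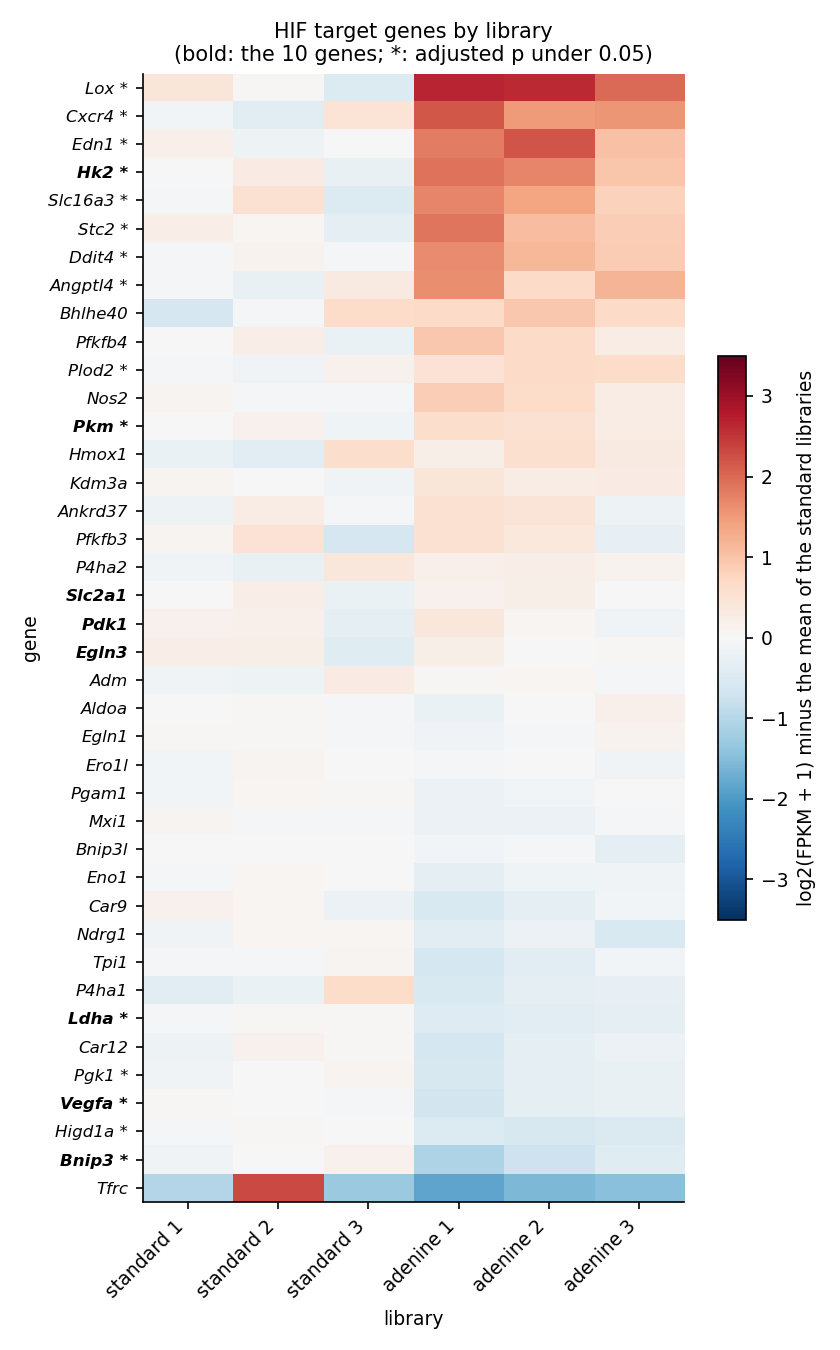
Log2(FPKM + 1) of tested HIF target genes in each library, minus the mean of the standard libraries, ordered by the mean difference; bold names belong to the 10 genes and asterisks mark an adjusted p under 0.05. Red cells gather in the adenine columns from Lox to Plod2, blue ones at Vegfa, Higd1a and Bnip3, and the single red cell at Tfrc is standard 2.

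Over the 6 libraries and the 10483 tested genes that averaged 5 FPKM or more, the genes whose log2(FPKM + 1) ran most like Hif1a were Trip4, Alg14 and Zdhhc24, with Pearson r of 0.997, 0.995 and 0.992. Those most like Epas1 were Ptpn21, Tpra1 and Atat1, with r of 0.997, 0.996 and 0.995. With 6 libraries and this many genes such values are a description only, and the libraries share their depth and scaling.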

How the data were processed

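The authors deposited FPKM values per gene for the 6 libraries, normalized for gene length and mapped fragments. Per the labels' protocols, total RNA of whole kidney was made into TruSeq libraries and read in pairs. Per the submitters' processing notes, bcl2fastq 2.0, TopHat and Cufflinks 2.1.1 were used with GRCm38 (mm10); the annotation is not given in the sources used here. Depth, estimated from the steps of low values with a nominal 200 bp fragment, was 17.4 to 22.9 M fragments per library; only 67.9% to 74.4% of steps lay within 0.15 of whole numbers, so no count test was run.

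The diets were compared with limma 3.58.1 in R 4.3.3 on log2(FPKM + 1), with a variance trend, for genes averaging 0.5 FPKM or more. The 17 alternatives changed the pseudocount, filter, scaling, variance prior and block, or left out a library. The code was tested on simulated data. Libraries of the same number deviated together (r = 0.257, 0.143 and 0.181, against -0.187 to 0.038 for different numbers). Each deviation was taken from the mean of 3 libraries, so these r values depend on each other. They cannot show that the numbers pair the libraries, and no label states a pairing. The main fit, which gave the calls, held no block, and the replicate number was a block only among the alternatives. The text names the 10 genes, both genes of each ratio pair, up to 3 genes called each way per list, markers, and the 3 genes most like Hif1a and Epas1. Members and lists were chosen with earlier results of these data known. The lists share genes. A few named-rule genes, with 1 of the ratios, stay in the counts but are not reported here. A table of other mice was not used: its 6 value columns match no sample listed. Gene models came from GENCODE M21 and promoters from RefSeq.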

Additional observations from a re-analysis of the deposited data

How the results depend on the processing

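Of the 10 genes, Hk2 kept its direction and its call in all 16 alternatives that tested it. Bnip3 kept its call in 13 of 17, Ldha in 9, Pkm in 8 and Vegfa in 7, each in the same direction throughout; where calls were lost, the cause was not tested. As deposited, 2 of the 10 genes were called higher and 3 lower, and 4581 and 1056 of all genes. Only Hk2 of the 10 was called higher with no filter or with rescaling without the 50 most abundant genes. The same held for median-of-ratios scaling alone or with the replicate block. At a mean of 5 FPKM the 1 called higher was Pkm, as Hk2 was not tested there. Of the 10, those called lower numbered 1 with no filter, quantile normalization or the replicate block. With the block, Vegfa (adjusted p = 0.0599), Ldha (0.0600) and Elob (0.0647) lost their calls, and it changed no call of the other members. Over all genes, median-of-ratios scaling called 2598 higher and 2344 lower, quantile normalization called 2140 and 2237, and the block joined to median-of-ratios scaling called 2673 and 2589. On leaving out 1 library, the members called ranged from 1 to 2 higher and 0 to 3 lower, and all genes from 1888 (without adenine 2) to 5452 (without adenine 3) higher and from 231 to 1594 lower, over the same libraries. The values that reversed were not called in the main analysis, except Vegfc. With median-of-ratios scaling, with or without the block, Epas1 was -0.063, Egln3 -0.19, Slc2a1 -0.18 and Pdk1 -0.17. With quantile normalization Egln3 was -0.31, Pdk1 -0.17 and Vegfc -0.081. On leaving out 1 library, Egln3 ranged from -0.13 to 0.19, Pdk1 from -0.055 to 0.23, the Hif1a to Epas1 log2 ratio difference from -0.038 to 0.24 and that of Egln3 to Egln1 from -0.066 to 0.20. An estimated depth of 17.4 to 22.9 M fragments limits the lowest levels, among them those of Hk2, Hk3 and Eno2 on the standard diet and of Epo and Hif3a.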
